A study of Homo sapiens with 8 samples.

Results

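The GAR1 crosslinking experiment was set against its own IgG controls in 4 of the 8 libraries of the series, namely 2 GAR1 libraries and the 2 IgG libraries that the labels assign to GAR1. They were chosen by these labels, and each control library is given separately throughout. All 4 came from U2OS, an established human osteosarcoma line, with no treatment or allele that differed between them. Intact cells were irradiated with ultraviolet light, which fixes proteins to the RNA they touch, and nuclei were lysed, treated with RNase I and precipitated with beads carrying either the Proteintech GAR1 antibody, which the study lists as rabbit, or mouse IgG. In iCLIP reverse transcription often ends where a protein was crosslinked, and the end of a cDNA thereby marks a contact. The control was thus not of the same species as the antibody, and this difference cannot be told apart from that between GAR1 and no GAR1. Replicates are only numbered in the labels, with no word on separate cultures, so p-values measure only the spread between these libraries, which may be technical. The tables hold crosslink sites rather than transcript levels, so the labelled cell line could not be checked against marker genes.

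GAR1 is a core protein of the H/ACA ribonucleoprotein, together with dyskerin, NHP2 and NOP10. H/ACA small nucleolar RNAs (snoRNAs) fold into hairpins joined by a hinge with the H box and end in an ACA box, and guide dyskerin to uridines of ribosomal RNA that become pseudouridine. Small Cajal body RNAs (scaRNAs) guide modification of spliceosomal snRNAs, whereas C/D snoRNAs work with fibrillarin, NOP56 and NOP58 and guide 2′-O-methylation.

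The deposited sites held 585454 and 1976518 cDNAs in the GAR1 libraries and 295255 and 10701 in the IgG libraries. These lay at 24810 and 53445 sites for GAR1 and at 15074 and 2747 for IgG. Both GAR1 libraries were therefore deeper than both controls, and depth and antibody cannot be told apart in any comparison below. A level is given as CPM, the cDNAs of a gene divided by the peak cDNAs of its library and multiplied by 1e6, which states composition and not amount.

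The most used positions lay in the same few H/ACA snoRNAs in GAR1 and in IgG. The windows below surround the position of highest mean share over the 4 libraries in 5 leading RNAs, because these positions carry the main signal. They are written 5′ to 3′ from GRCh38, with the crosslinked nucleotide in capitals.
SNORA81, chr3:186786709-186786729, plus strand: acactaggacCatgtcttggt
SNORA73B, chr1:28508693-28508713, plus strand: tgcatattccTacagcttccc
SNORA6, chr3:39408414-39408434, plus strand: ggaggccagtCttggctcatg
SNORA61, chr1:28579868-28579888, minus strand: cctgatccctTtcccatcgga
SNORA62, chr3:39411080-39411100, plus strand: gaggctactgActggccgatg
The SNORA81 position, nucleotide 45 of the RNA, held 2126 and 2427 cDNAs in GAR1 and 2139 and 495 in IgG. The SNORA61 position, nucleotide 16, held 1792 and 2373 cDNAs in GAR1 and 1699 and 126 in IgG. The SNORA6 position, nucleotide 36, held 1799 and 2308 in GAR1 and 1595 and 85 in IgG. Counts at these positions were thus nearly equal in GAR1 replicate 1 and IgG replicate 1 although their totals differed 1.98-fold. In the same 2 libraries the leading positions of SNORA63 (1415 and 1254) and SNORA66 (1225 and 1134) were also close. Those of SNORA73A (1923 and 926), SNORA18 (1557 and 879), SNORA32 (958 and 616), SNORA57 (1105 and 529) and SNORA4 (186 and 54) were not. As a share of all cDNAs of SNORA81, the position held 5.35% and 2.38% in GAR1 and 7.18% and 29.1% in IgG, with the groups apart and the lowest share in the deepest library.

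The ratio between libraries fell as the count at a position rose. GAR1 replicate 2 had 3.38 times the cDNAs of replicate 1 in total. Over shared positions of 51 to 200 cDNAs in replicate 1 the ratio was 4.33, above 500 and up to 1000 it was 2.30, and above 1000 it was 1.46. For GAR1 replicate 2 over IgG replicate 1 the totals gave 6.69, and the ratio ran from 10.3 at positions of 11 to 50 cDNAs down to 1.66 above 1000. Positions of at least 500 cDNAs held 34.3% and 53.3% of the GAR1 cDNAs and 29.7% and 0% of the IgG cDNAs. How far the ratios of the leading RNAs rest on such positions was not computed. The largest count at any position was 2126 and 2666 in GAR1 and 2139 and 495 in IgG. The sources used here do not give the length of the random barcode that separates cDNAs. Whether counts at a position have an upper limit was not tested, and the CPM and shares of the leading RNAs carry this limit.

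**Figure D1:**
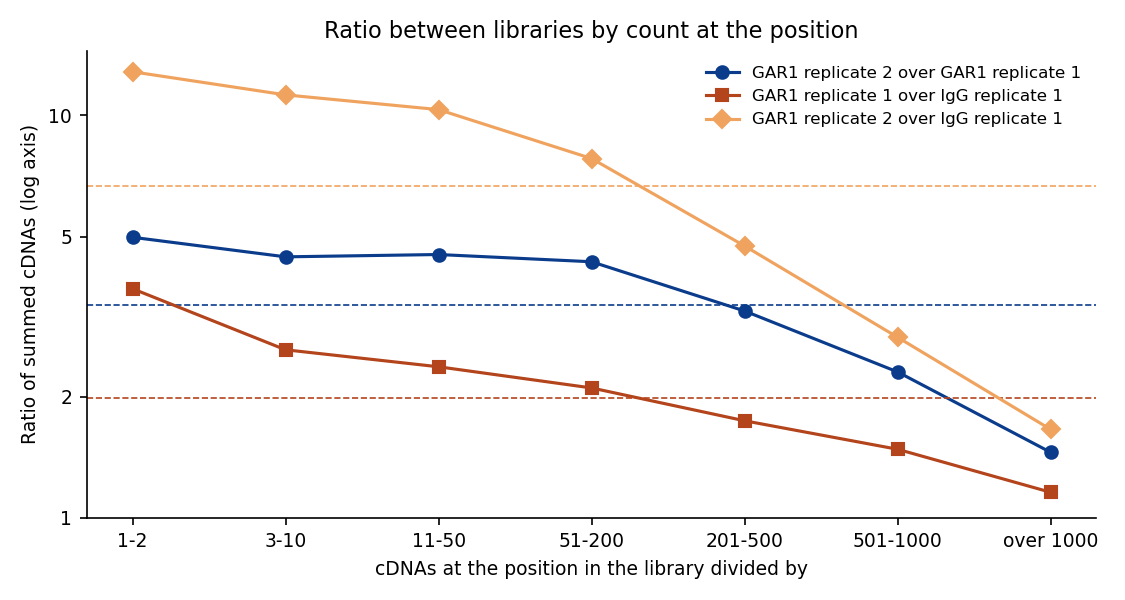
Ratio of summed cDNAs between pairs of libraries (vertical log axis) over positions found in both, by the number of cDNAs at the position in the library divided by (horizontal axis, 7 bins). Points are bins, dashed lines are the ratio of the totals, and in all 3 pairs the points run from above the dashed line to below it, down to 1.46, 1.16 and 1.66 above 1000 cDNAs.

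The share of peak cDNAs in H/ACA snoRNAs overlapped between GAR1 and IgG. That in C/D snoRNAs was larger in GAR1 over all cDNAs, but not in every setting. H/ACA snoRNAs held 78.6% and 75.7% of peak cDNAs in GAR1 and 81.4% and 76.1% in IgG. With each site counted once they held 37.5% and 22.7% in GAR1 and 45.2% and 55.6% in IgG, below both controls. Without positions of 500 cDNAs or more they held 58.6% and 61.6% in GAR1 and 58.7% and 45.1% in IgG, with overlap. The GAR1 mean was then 8.21 percentage points above that of IgG, with IgG replicate 2 far below the other libraries. The sign of the difference between means thus varied with the setting. C/D snoRNAs held 10.6% in both GAR1 libraries (10.6% ± 0.0377, SD, n = 2), 7.98% (Wilson 95% confidence interval 7.88 to 8.08) in IgG replicate 1 and 4.78% (4.40 to 5.21) in IgG replicate 2. The GAR1 mean was 1.33 times the first control and 2.21 times the second. With the sites that overlap a single gene alone, the difference of 4.21 percentage points between the group means was 0.15. That setting leaves out snoRNA sites inside host genes. H/ACA snoRNAs then held only 0.654% and 0.958% in GAR1 and 0.598% and 0% in IgG. It therefore cannot decide whether the C/D difference holds. With each site counted once C/D snoRNAs held 19.5% and 13.1% in GAR1 and 18.1% and 8.66% in IgG, with overlap. Without positions of 500 cDNAs or more they held 21.7% and 17.6% against 19.2% and 9.14%, also with overlap. scaRNAs held 4.86% and 6.80% in GAR1 and 4.82% and 3.46% in IgG. The first GAR1 library and the first control thus nearly met, their intervals being 4.81 to 4.92 and 4.75 to 4.90. Intervals cover counting error only. Of 2 libraries against 2, no exact two-sided permutation test can give a p below 0.33, so no class was tested.

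**Figure D2:**
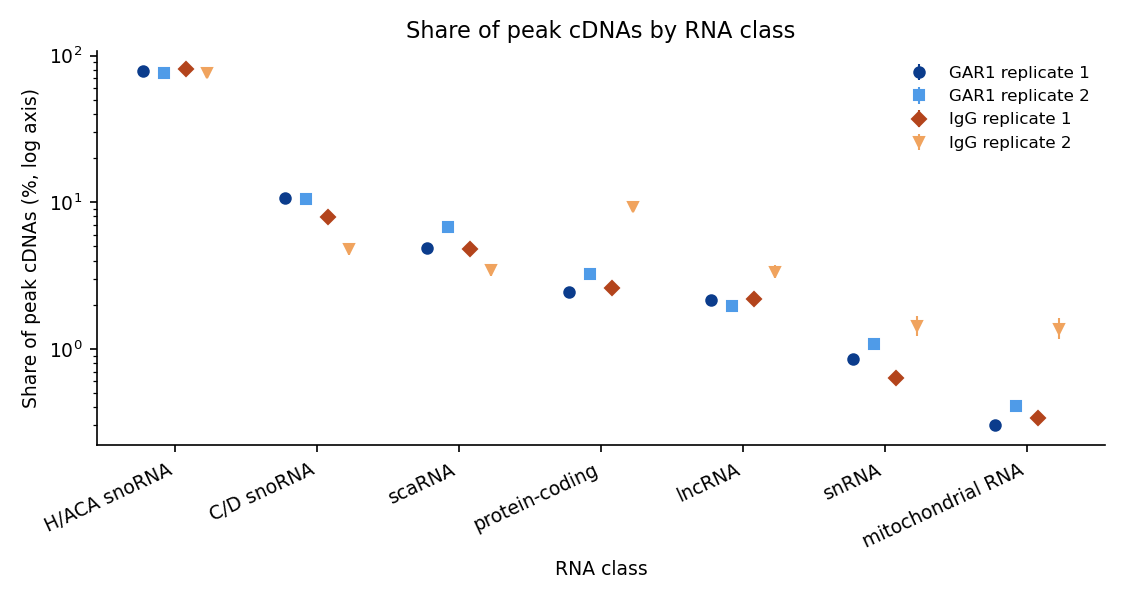
Share of peak cDNAs (%, vertical log axis) in 7 RNA classes (horizontal axis) for each of the 4 libraries, with Wilson 95% confidence intervals as bars, mostly smaller than the points. C/D snoRNAs are above both controls in both GAR1 libraries, H/ACA snoRNAs overlap, and protein-coding RNAs reach 9.27% in IgG replicate 2 only.

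Protein-coding genes, lncRNAs, mitochondrial RNAs and snRNAs differed more between the controls than the GAR1 mean did from the first control. Protein-coding genes held 2.42% and 3.23% in GAR1 and 2.58% and 9.27% in IgG. The long non-coding RNAs (lncRNAs) held 2.15% and 1.96% against 2.19% and 3.35%. Mitochondrial RNAs held 0.304% and 0.406% against 0.335% and 1.37%. In each of these classes IgG replicate 2, the library of 10701 cDNAs, was the highest of the 4. Spliceosomal and related snRNAs held 0.846% and 1.07% in GAR1 and 0.631% and 1.44% in IgG, with the controls on either side of GAR1.

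Sites were found in 141 and 159 H/ACA snoRNAs for GAR1 and in 134 and 101 for IgG, of 249 annotated. If each library were thinned at random to the cDNAs of the smallest, the numbers expected from the GAR1 counts would be 121.7 and 126.3, above the 101 of IgG replicate 2, and 119.1 for IgG replicate 1. For C/D snoRNAs, with 180, 195, 161 and 64 RNAs found in the same order, the numbers expected at that depth were 135.3, 142.2 and 123.3. For protein-coding genes IgG replicate 2 stood highest, with 374 found, beside 137.6 and 179.2 expected for GAR1 and 125.4 for IgG replicate 1. These numbers count RNAs with a significant site called in each library by itself.

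The most crosslinked RNAs of the GAR1 libraries were all H/ACA snoRNAs, which lie in introns or exons of host genes, and several stood higher in IgG. SNORA81, which lies within the translation factor gene EIF4A2 at chr3:186786675-186786852 (GRCh38, plus strand), led every library, with 67914 and 51519 CPM in GAR1 and 100840 and 158960 in IgG. The groups did not overlap, and the values ran against depth in all 4 libraries. By edgeR's quasi-likelihood test GAR1 was lower, with a log2 fold change of -1.12 ± 0.231 (SE, Benjamini-Hochberg adjusted p = 0.000394). It was -0.76 without IgG replicate 2, and it was 0.67 without the positions of at least 500 cDNAs, so its direction depended on them. The adjusted p ran from 9.72e-07 to 0.999 over 16 alternatives, of which 6 called it.

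SNORA61, which lies in the snoRNA host gene SNHG12, stood at 22364 and 19809 CPM in GAR1 and at 30689 and 34389 in IgG. SNORA66, within the ribosomal protein gene RPL5, stood at 17609 and 17728 CPM against 23377 and 27754. SNORA63, known as E3 and also within EIF4A2, stood at 29451 and 25259 CPM against 31932 and 36071. For all 3 both GAR1 libraries were below both controls, with log2 fold changes of -0.63, -0.53 and -0.31 and edgeR adjusted p of 0.283, 0.463 and 0.638, so none passed.

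SNORA73B and SNORA73A, copies of the U17 RNA that acts in processing of 18S ribosomal RNA, overlapped between groups. SNORA73B, in SNHG3, stood at 54562 and 34916 CPM in GAR1 and 48406 and 67190 in IgG. SNORA73A stood at 46192 and 31346 CPM against 39634 and 47659. Their near-identical sequences can share reads, so the division between them is uncertain. SNORA6 and SNORA62, both in the ribosomal protein gene RPSA, also overlapped, at 29162 and 20747 against 27465 and 28315 CPM for SNORA6 and at 22626 and 15503 against 21599 and 28222 for SNORA62.

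SNORA4 and SNORA57 were above both controls in both GAR1 libraries. SNORA4, a further snoRNA within EIF4A2, stood at 17592 and 15270 CPM in GAR1 and 12776 and 9438 in IgG. SNORA57 stood at 14700 and 12091 CPM against 10520 and 4766. Neither passed the edgeR test, with log2 fold changes of 0.56 and 0.78 and adjusted p of 0.501 and 0.280. SNORA18 and SNORA32, both in TAF1D, overlapped, SNORA18 at 18084 and 12700 against 13992 and 8130 CPM and SNORA32 at 12676 and 16106 against 14252 and 12429. SNORA81, SNORA63 and SNORA4 of the one host EIF4A2 therefore did not lie on the same side of their controls.

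**Figure D3:**
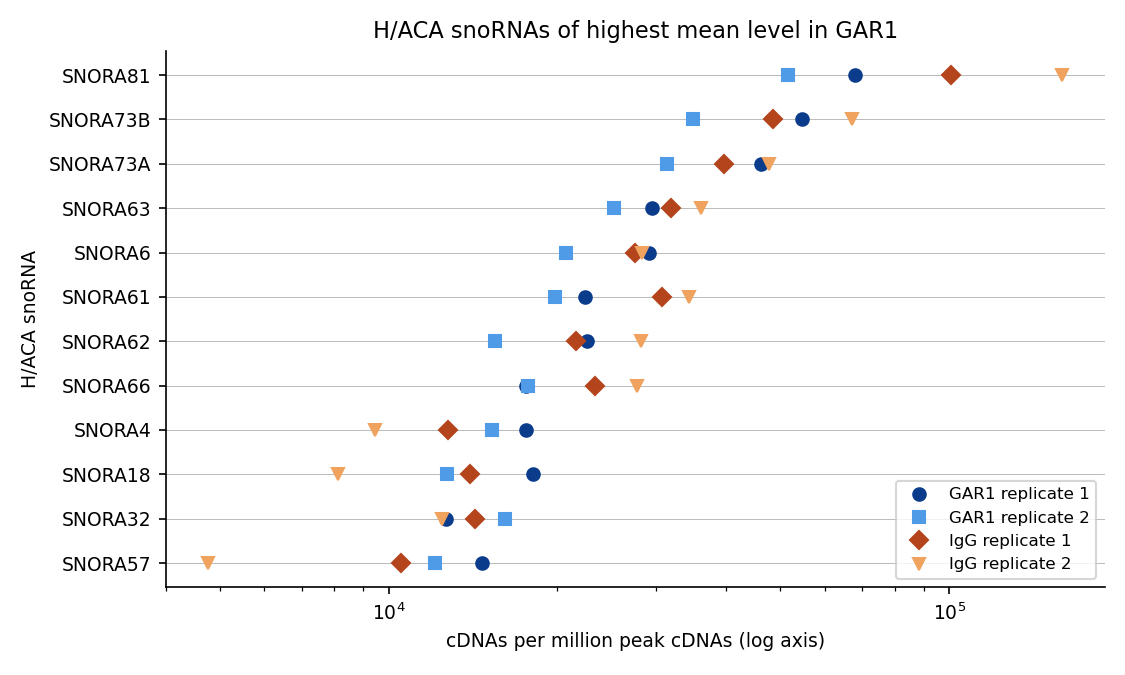
Level (CPM, horizontal log axis) of the 12 H/ACA snoRNAs of highest mean level in GAR1 (vertical axis), one point for each of the 4 libraries. SNORA81, SNORA63, SNORA61 and SNORA66 lie higher in both controls than in both GAR1 libraries, and SNORA4 and SNORA57 lower.

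The 138 genes with a mean of at least 1000 CPM over the 4 libraries were also compared, a mean that 1 group can raise alone, as IgG did for ACVR2B. Both GAR1 libraries were above both controls for 51 of them (37.0%) and below both for 6 (4.35%). Among H/ACA snoRNAs 32 of 91 were above and 4 below, and among scaRNAs 4 of 11 were above and none below. Both shares were close to that of all 138 genes. Among C/D snoRNAs 14 of 25 were above and none below.

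The size of the difference depended on the control. The median fold of the GAR1 mean over IgG replicate 1 was 1.08 for H/ACA snoRNAs, 1.24 for scaRNAs, 1.22 for C/D snoRNAs and 1.10 for all 138 genes. Over IgG replicate 2 the medians were 1.55, 1.75, 2.01 and 1.64. Between the controls themselves the median fold of replicate 2 over replicate 1 was 0.71 for all 138 genes, further from 1 than the median fold of GAR1 over the first control. The order of the 91 H/ACA snoRNAs was alike in all libraries, with Spearman's rho across RNAs of 0.951 between the GAR1 libraries, 0.965 and 0.957 between each of them and IgG replicate 1, and 0.899 between each and IgG replicate 2. These RNAs share libraries and depth and are not independent.

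**Figure D4:**
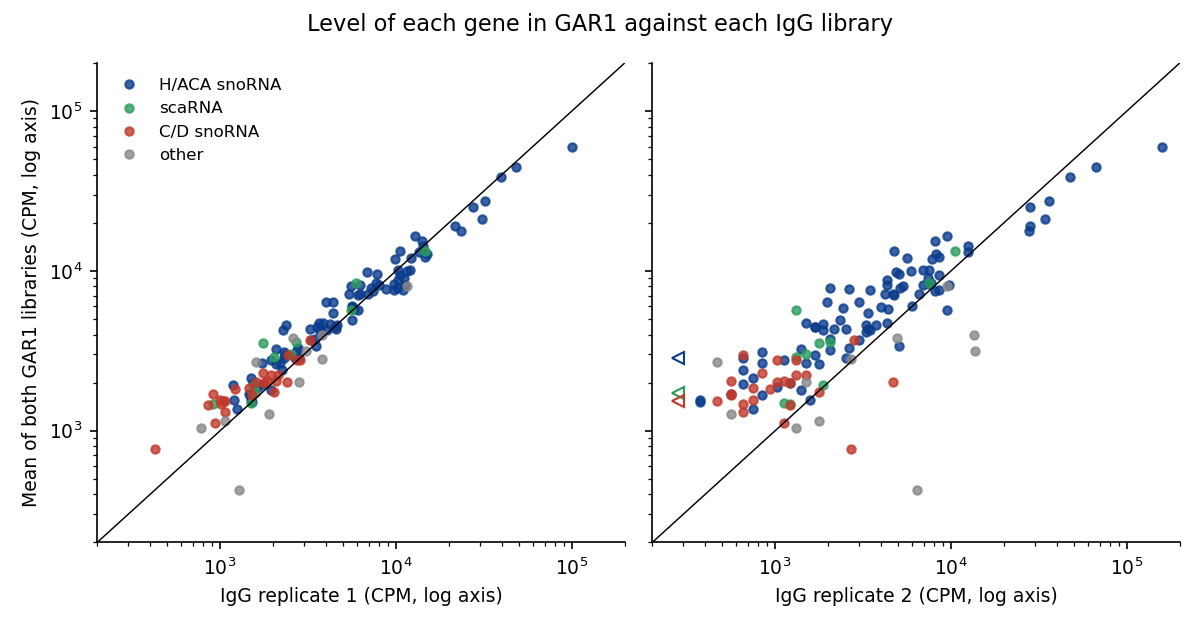
Mean level of both GAR1 libraries (CPM, vertical log axis) against IgG replicate 1 (left) and IgG replicate 2 (right, horizontal log axes) for the 138 genes, coloured by class, with the line of equal levels. Open triangles are genes with no cDNA in the control, placed at the level of 3 cDNAs. Of the leading RNAs, SNORA81, SNORA73B, SNORA73A, SNORA63, SNORA6, SNORA61, SNORA62 and SNORA66 fall to the right of the line in both panels. SNORA4, SNORA18, SNORA32 and SNORA57 lie above it. By single libraries SNORA73B, SNORA73A, SNORA6, SNORA62, SNORA18 and SNORA32 overlapped between the groups.

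Of the genes with at least 10 cDNAs in at least 2 libraries, both GAR1 libraries were above both controls for 322 of 557 (57.8%) and below both for 12 (2.15%), in a set that GAR1 alone could fill. These 557 were tested, and 46 were called higher in GAR1 (8.26%) and 10 lower (1.80%) at an adjusted p under 0.05. All 46 had no cDNA in either control. Of the 557 genes 57 had no cDNA in either control. Others with under 10 cDNAs in each control, such as SRRM2 with 8 and 0, also passed the filter through GAR1 alone, and their number was not counted. The 46 genes passed in this way too, so their calls were not read as a result. They included RRM2, a subunit of ribonucleotide reductase, with 33 and 162 cDNAs, NASP, a histone chaperone, with 36 and 126, GLI2, a Hedgehog transcription factor, with 41 and 100, and PRKCA, a protein kinase, with 44 and 87. Against a floor of 3 cDNAs over both controls, the 46 genes were at least 1.47-fold to 7.76-fold higher, a bound on cDNAs in called sites only. The floor pools both controls and so rests almost wholly on IgG replicate 1. In IgG replicate 2 alone 3 cDNAs are 280 CPM, above the 15.6 to 69.2 mean CPM of the 46 genes, and it gives no bound. Without a given library the calls higher and lower were 35 and 12 (IgG replicate 1), 2 and 3 (IgG replicate 2), 0 and 1 (GAR1 replicate 1) and 0 and 0 (GAR1 replicate 2). DESeq2 called 0 and 3 and edgeR with TMM scaling 0 and 0, and at an unadjusted p under 0.05 edgeR had 71 higher and 18 lower, DESeq2 3 and 19, and TMM 61 and 23.

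Among the genes called lower, ACVR2B, a receptor of activins, had the lowest edgeR adjusted p outside the snoRNAs. It stood at 649 and 202 CPM in GAR1 and at 1277 and 6448 in IgG, with the groups apart, and GAR1 was lower by edgeR's test (log2 fold change -3.11 ± 0.639 SE, adjusted p = 0.000394). As cDNAs these levels were 380 and 400 in GAR1 and 377 and 69 in IgG, and the CPM fell as depth rose over the 4 libraries. The difference in ACVR2B thus cannot be told apart from depth. The log2 fold change was -1.59 without IgG replicate 2. With TMM scaling it was -3.65, and the gene was not called. All of its GAR1 cDNAs lay in coding sequence, and the 4 libraries together had 18 positions in the gene. The most used position held 19.5% and 19.8% of the ACVR2B cDNAs in GAR1 and 23.3% and 26.1% in IgG, and its window is shown because no snoRNA is annotated there.
ACVR2B, chr3:38477327-38477347, plus strand: ctacaacgccAactgggagct

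Several of the other genes called lower had few cDNAs or were high mostly in 1 control library. MT-RNR2, the large mitochondrial ribosomal RNA, stood at 2789 and 3561 CPM in GAR1 and 3085 and 13737 in IgG, with overlap. Its log2 fold change was -1.36 ± 0.457 (SE, edgeR adjusted p = 0.0334), and it was 0.04 without IgG replicate 2. APOC3, an apolipoprotein gene, stood at 188 and 61.2 CPM against 312 and 1962, and RNU6-4P, a U6 copy, at 53.0 and 122 against 112 and 1869. HNRNPA1, an RNA-binding protein, had 0 and 20 cDNAs in GAR1 and 11 and 2 in IgG, and MLLT1 had 2 and 25 against 13 and 2. RBMS3 had 0 and 17 against 24 and 0, and the lncRNA ENSG00000275016 had 47 and 6 against 237 and 0. In the last of these the cDNAs lay mostly in 1 control.

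C/D snoRNAs made up most of the genes listed for the widest gap between the lower GAR1 library and the higher control, with SCARNA28 the only scaRNA. Of the 322 tested genes with both GAR1 libraries above both controls, 112 were C/D snoRNAs and 18 scaRNAs. The ranking was not read as a result about these classes. SNORD12C, in ZFAS1, stood at 1064 and 1274 CPM in GAR1 and 457 and 374 in IgG, and SNORD28, in SNHG1, at 601 and 727 against 169 and 0. SCARNA28, within TRRAP, stood at 664 and 731 CPM against 291 and 187. SNORA78, an H/ACA snoRNA of SNHG9, stood at 717 and 772 CPM against 349 and 0. None of these passed the edgeR test, with adjusted p of 0.395, 0.167, 0.501 and 0.435, and both groups were apart for each. In each the CPM rose as depth rose over the 4 libraries, so the difference cannot be told apart from depth. The values of 0 are in the library of 10701 cDNAs, where 3 cDNAs are 280 CPM.

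The most crosslinked scaRNAs did not separate the groups. SCARNA10, within NCAPD2, stood at 11909 and 14606 CPM in GAR1 and 14547 and 10560 in IgG. SCARNA11 stood at 7027 and 9751 against 5893 and 7476, and SCARNA13, in SNHG10, at 5430 and 5993 against 5555 and 1308. Of the leading C/D snoRNAs, SNORD76 and SNORD80 of the lncRNA GAS5 overlapped, at 4730 and 2628 against 3231 and 2804 CPM and at 3163 and 2400 against 2747 and 1308. SNORD2, in EIF4A2, was above both controls, at 2781 and 3141 against 2429 and 654 CPM. Over all tested members the median log2 fold change was 0.48 for 133 H/ACA snoRNAs, 0.71 for 32 scaRNAs and 0.87 for 151 C/D snoRNAs, beside 0.75 for all 557 genes, and 0.48, 0.71, 0.87 and 0.72 with genes at 0 taken at their bound. These medians cover genes that GAR1 alone could bring into the test.

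Other structured RNAs were rare. RMRP, the RNA of RNase MRP, had 232 and 381 CPM in GAR1 and 224 and 0 in IgG, and RN7SK, which regulates transcription elongation, had 78.6 and 98.2 against 61.0 and 0. RN7SL1, the signal recognition particle RNA, had 4 and 33 cDNAs against none, and RPPH1, the RNA of RNase P, 0 and 30 against none. TERC, the telomerase RNA, which carries an H/ACA domain, had no site in any of the 4 libraries, nor had the mRNAs of DKC1, GAR1, NOP10, NHP2, NAF1 and SHQ1, which encode the complex and its assembly factors. Since only significant sites were listed, this sets no upper limit on their contacts. U12 snRNA (RNU12) stood at 3095 and 4548 CPM in GAR1 and 2601 and 4953 in IgG, with overlap.

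Among lncRNAs, GAS5, which hosts C/D snoRNAs, stood at 2948 and 2425 CPM in GAR1 and at 1592 and 467 in IgG, apart but with an edgeR adjusted p of 0.281. MALAT1, a lncRNA of nuclear speckles, stood at 4578 and 3332 CPM against 3810 and 13457, and NEAT1, the scaffold of paraspeckles, at 688 and 349 against 417 and 561. DANCR, which hosts SNORA26, stood at 8667 and 7543 CPM against 11614 and 9532, with both GAR1 libraries below both controls and an adjusted p of 0.660. Without the positions just upstream of SNORA26, described below, it stood at 4031 and 4365 CPM in GAR1 and 3353 and 3831 in IgG, above both controls, so its direction rested on them. Of the 23 host and nuclear lncRNAs with a cDNA, 10 were tested, 1 was called higher and none lower, and the 1 called had no cDNA in either control. Over all genes tested the shares called were 8.26% and 1.80%, and counts this small are not read as a result for this or the following lists.

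Part of the signal in protein-coding genes and lncRNAs lay just upstream of snoRNAs in the same transcript. Positions 6 to 50 nt upstream of an annotated snoRNA or scaRNA held 29.8% and 21.7% of the protein-coding cDNAs of GAR1 and 35.8% and 5.54% of those of IgG. For lncRNAs they held 25.1% and 23.5% in GAR1 and 41.3% and 17.9% in IgG. All cDNAs of IPO7, a nuclear import receptor, lay upstream of SNORA23, all of the ribosomal protein gene RPL13 upstream of SNORD68 and all of RPL12 upstream of SNORA65, in every library. In DANCR 53.5% and 42.1% of the GAR1 cDNAs and 71.1% and 59.8% of the IgG cDNAs lay upstream of SNORA26. The most used positions of these genes are shown with their distance from the snoRNA, since the annotation alone would count them as mRNA or lncRNA.
IPO7, intron, 9 nt upstream of SNORA23, chr11:9428754-9428774, plus strand: tgtaaatcttTacatggctgc
RPL13, intron, 6 nt upstream of SNORD68, chr16:89561418-89561438, plus strand: gttggcctcaGtcgcgtgatg
RPL12, intron, 8 nt upstream of SNORA65, chr9:127448628-127448648, minus strand: tggttttgccCtcagccaccc
DANCR, exon, 13 nt upstream of SNORA26, chr4:52713226-52713246, plus strand: aaaatcacaaAgcaccctttc
The IPO7 position held 1122 and 2116 cDNAs in GAR1 and 813 and 22 in IgG, and the DANCR position 1613 and 2202 against 1516 and 43.

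Without these flanks, protein-coding genes held 1.70% and 2.53% of peak cDNAs in GAR1 and 1.66% and 8.76% in IgG. They were spread thin, with sites in 1455 and 2825 genes for GAR1 and in 944 and 369 for IgG and medians of 3, 4, 2 and 2 cDNAs per gene. In both GAR1 libraries 691 genes had a site, and 33.6% of them also had one in a control. NTM, a neuronal cell adhesion gene, was the highest, at 998 and 1255 CPM in GAR1 and 528 and 561 in IgG, where the second control rests on 6 cDNAs. It was above both controls, and 97.9% of its GAR1 cDNAs lay in introns at no more than 7 per position. SRGAP2B, one of a family of near-identical copies that may share reads, stood at 543 and 1531 CPM against 776 and 1308, and BUB1, a spindle checkpoint kinase, at 518 and 826 against 569 and 0. SRRM2, a speckle protein, had 41 and 362 cDNAs in GAR1 and 8 and 0 in IgG, and ACTB, cytoplasmic actin, 8 and 200 against 16 and 0, neither passing the test (adjusted p = 0.459 and 0.883). EEF2 had no site in the 4 libraries. Ribosomal protein mRNAs had 39 members with a cDNA, of which 3 were tested and none called, and of 17 translation factors 1 was tested and not called. Of the speckle protein mRNAs 3 were tested, of which 1, at 0 in both controls, was called higher. Of the mitochondrial RNAs 3 were tested, with MT-RNR2 called lower, and the 1 cytoskeleton and matrix gene tested was not called.

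Within protein-coding genes, introns held 76.7% and 64.9% of GAR1 sites and 68.7% and 53.1% of IgG sites. Coding sequences held 17.5% and 28.4% of GAR1 sites and 19.5% and 36.9% of IgG sites. Both regions overlapped, and the 2 GAR1 libraries differed from each other by more than GAR1 replicate 1 did from IgG replicate 1. 3′UTRs held 4.02% and 4.74% of GAR1 sites and 9.86% and 6.43% of IgG sites, below both controls in both libraries. When sites were divided by the length of each region, 3′UTRs held 11.8% and 9.98% of the summed density against 23.02% and 9.80%, with overlap. The 3′UTR sites numbered 218 and 1102 for GAR1 and 237 and 34 for IgG.

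Along the H/ACA snoRNAs, crosslinks of GAR1 and of IgG lay at the same places. A match to the H box, written ANANNA, was sought within 20 nt of the midpoint and an ACA box 3 nt from the 3′ end, on the strand of the RNA. The first was found in 88.8% of 249 annotated H/ACA snoRNAs and 61.1% of 460 C/D snoRNAs, and the second in 67.5% and 1.30%. The 50 H/ACA snoRNAs with both matches and at least 20 cDNAs in each of the 4 libraries were compared, with each RNA given equal weight. A peak at nucleotide 14 held 5.50% and 4.36% of the cDNAs of an RNA in GAR1 and 6.86% and 6.69% in IgG. A peak before the first annotated nucleotide, at -2, held 3.51% and 4.70% against 4.80% and 4.82%. A peak 18 nt after the start of the H box held 2.67% and 2.07% against 2.52% and 2.85%.

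The portion after the H box held more of the GAR1 signal than of the IgG signal. It held 25.9% and 23.2% of cDNAs in GAR1 and 19.2% and 21.3% in IgG (24.6% ± 1.94 and 20.3% ± 1.51, SD, n = 2 each), with the groups apart. Pooled over cDNAs instead of RNAs the values were 30.3% and 25.04% against 22.8% and 25.9%, and they overlapped. The 6 nt of the H box held 1.27% and 1.45% in GAR1 against 0.993% and 0.834%. The 5 nt upstream held 10.6% and 13.3% against 14.4% and 12.3%, and the first 10 nt 6.25% and 7.95% against 7.46% and 9.24%, both with overlap. This portion was described with earlier results of these data known, and no test was run on it.

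Single RNAs differed in this respect. After the H box, 26 of the 50 RNAs had larger shares in both GAR1 libraries than in both controls, 3 had smaller ones and 21 overlapped. Shares in IgG replicate 2 often rest on few cDNAs, such as 22 for SNORA5C, with 0% after the H box, and 64 for SNORA10. At least 50 cDNAs in every library were found for 29 of the 50 RNAs. SNORA62, the RNA known as E2, had 54.3% and 48.3% after the H box in GAR1 and 33.4% and 35.1% in IgG, and SNORA6 50.3% and 42.4% against 35.02% and 41.9%. SNORA73B had 39.2% and 38.2% against 51.015% and 46.6%, and SNORA10, a guide of the H/ACA type, 55.3% and 39.4% against 58.5% and 76.6%. The shares of the last 2 were lower in GAR1 than in both controls. The leading SNORA73B position, nucleotide 145 and after the H box, alone held 6.39% and 3.86% of its cDNAs in GAR1 and 12.9% and 28.1% in IgG. That of SNORA6, nucleotide 36 and before the H box, held 10.5% and 5.63% against 19.7% and 28.1%. Shares without these positions were not computed, so the values of both RNAs carry the limit given for leading positions.

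**Figure D5:**
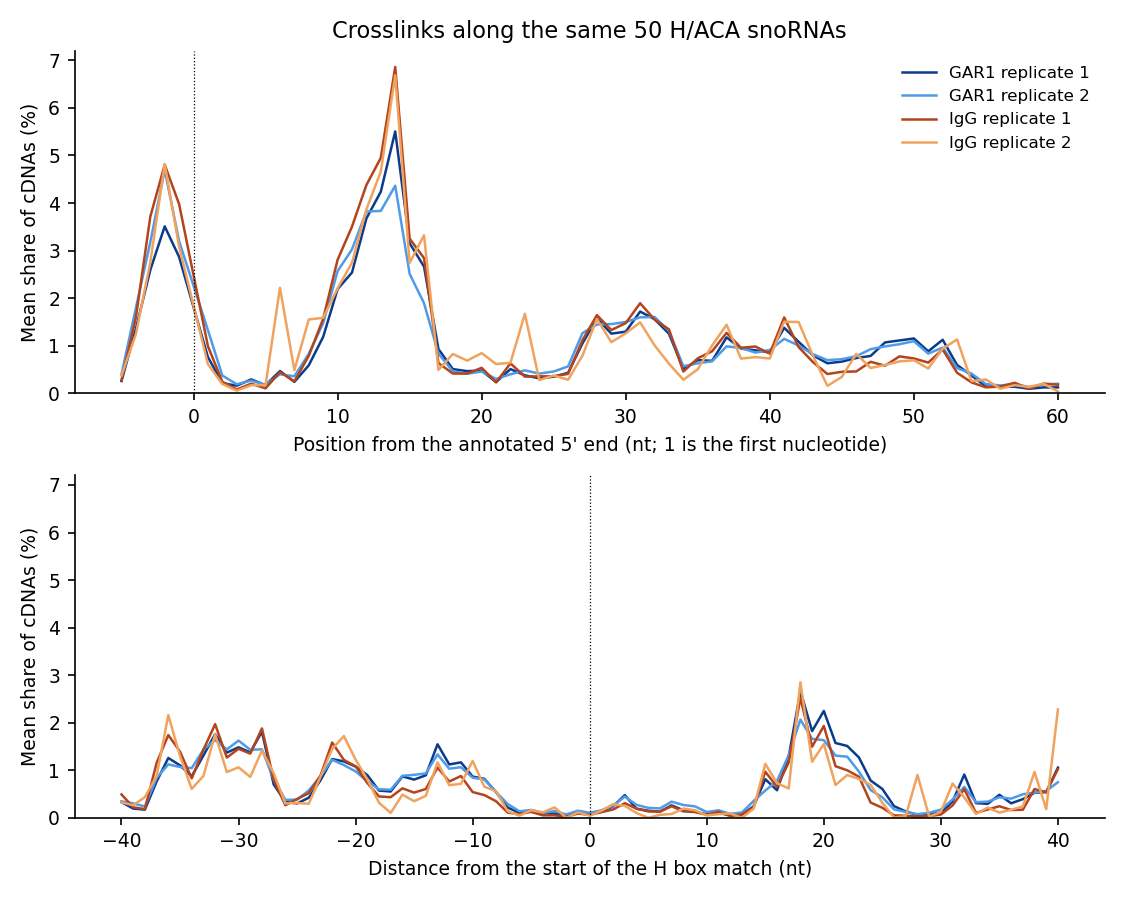
Mean share of the cDNAs of an RNA at each nucleotide (%, vertical axis) over the same 50 H/ACA snoRNAs, by position from the annotated 5′ end (top) and by distance from the start of the H box match (bottom), one line for each library. All 4 lines peak at nucleotides -2 and 14 and 18 nt after the start of the H box.

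Positions found in both GAR1 libraries and in neither control were many but carried little signal. Of 18798 positions in both GAR1 libraries, 7488 (39.8%) were in neither control, and these held 4.18% and 3.86% of the cDNAs at the shared positions. In H/ACA snoRNAs the positions absent from IgG were 29.6% of those in both GAR1 libraries and held 2.37% and 2.59% of their cDNAs. In C/D snoRNAs they were 46.2%, with 10.4% and 8.64% of the cDNAs, and in protein-coding genes 71.5%, with 22.8% and 14.1%. The largest such position, in SNORA81, had 218 and 863 cDNAs. Conversely, 97.9% of the cDNAs of IgG replicate 1 and 89.2% of those of IgG replicate 2 lay at positions found in both GAR1 libraries.

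Uridine was the most frequent crosslinked base in H/ACA snoRNAs, scaRNAs and C/D snoRNAs alike, in all 4 libraries. In H/ACA snoRNAs uridine made up 30.8% and 29.9% of the sites in GAR1 and 31.6% and 33.7% in IgG, below both controls in both GAR1 libraries, beside 28.3% of the bases of these RNAs. Weighted by cDNAs it made up 33.0% and 34.7% in GAR1 and 33.5% and 35.3% in IgG, with overlap. In scaRNAs uridine held 43.996% and 42.0% of the cDNAs in GAR1 and 44.2% and 51.4% in IgG, below both controls, against 27.2% of their bases. The last control value rests on 370 cDNAs. In C/D snoRNAs it held 34.0% and 35.1% of the cDNAs in GAR1 and 33.0% and 32.8% in IgG, above both controls. Counted over C/D sites it was below both, at 31.8% and 31.1% against 33.9% and 37.4%.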

How the data were processed

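The authors used the iMaps server. Per the labels and the methods, quality was checked with FastQC 0.11.9, Cutadapt (no version stated) removed adapters, reads were aligned to GRCh38 with STAR 2.7.0e, and iCount called significant crosslink sites in each library by itself. The values used are the counts of cDNAs per site that the authors deposited, with no normalization. Reads with several alignments were kept, so paralogs can share counts. The tables of clusters were not used. A sum over sites is what passed the call and not sequencing depth.

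Each site was given to a gene on its strand, from 62700 in GENCODE 44 and 104 further snoRNAs and scaRNAs from RefSeq (459 were in GENCODE already, 14 were named by position and 5 of unsettled strand were left out), using bedtools 2.31.1, short RNAs first, with a margin of 5 nt upstream. Sites outside genes were at most 0.00182% of the cDNAs and were left out of the tests. Genes with at least 10 cDNAs in at least 2 of the 4 libraries were tested with the quasi-likelihood F test of edgeR 4.0.16 (R 4.3.3, limma 3.58.1) on total peak cDNAs without TMM, two-sided, with 2 residual degrees of freedom and Benjamini-Hochberg adjustment over all genes tested. The fit gave infinite prior degrees of freedom, so the dispersion of each gene was taken from the trend over all genes tested. A gene's own spread between replicates thus entered its p-value only through that trend. Each SE is the absolute log2 fold change divided by the root of the F statistic of the same fit. With TMM scaling the prior was finite, at 6.13. The script was tested on simulated data. Alternatives used DESeq2 1.42.0, other scalings, filters, assignments and single libraries left out. Shares have Wilson 95% intervals (scipy 1.17.1). Replicates 1 of the 2 groups did not deviate together (correlation -0.115 over 557 genes), and the numbers were not taken as pairs. Of these genes 323 were at 0 in IgG replicate 2. The deeper library was replicate 2 in GAR1 and replicate 1 in IgG. The correlation therefore cannot decide whether replicates were paired.

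Named genes were the 12 of highest mean CPM in GAR1, genes called, up to 10 in each direction by fold change, genes with groups apart and at least 30 cDNAs in both libraries of the higher group, up to 10 in each direction by the gap, a fixed set of structured RNAs, H/ACA assembly genes and mRNAs, and the leading members of each list. IPO7, SRGAP2B, BUB1 and the RNAs named for their positions were chosen after their values were seen, as were the leading positions. Members and lists were chosen with earlier results of these data known. Of the lists, C/D proteins had 1 gene with a cDNA, histones 5, mitochondrial RNAs 15, speckle proteins 13, and cytoskeleton and matrix genes 9, of which 0, 0, 3, 3 and 1 were tested. Further genes that the rule gave are not printed, among them others called higher or with groups apart, and one gene called lower is not reported here.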

Additional observations from a re-analysis of the deposited data

How the results depend on the processing

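The calls of the edgeR test depended on nearly every choice. Against 46 genes called higher and 10 lower, there were 0 and 0 with TMM scaling, 0 and 2 without a filter, 0 and 1 with a minimum of 50 counts, 0 and 3 with all 8 libraries, 0 and 2 with sites of at least 3 cDNAs, 0 and 3 with DESeq2, and 0 and 6 without positions of 500 cDNAs or more. Leaving out 1 library gave 0 to 35 higher and 0 to 12 lower. Exact annotated ends, GENCODE alone and 50 nt upstream counted with snoRNAs kept both counts within 1.5 times. With the replicate block there were 0 and 0, and with the pairing crossed 0 and 2. The log2 fold change of SNORA81 was 0.67 without positions of 500 cDNAs or more, and that of MT-RNR2 ran from -2.11 without IgG replicate 1 to 0.04 without IgG replicate 2. The causes were not tested.

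The difference in H/ACA share, GAR1 minus IgG, was -1.59 percentage points. It was -20.3 with each site counted once, -6.34 with sites of at least 3 cDNAs and 8.21, with overlap, without positions of 500 cDNAs or more. For scaRNAs it was 1.69, and -0.28 with each site counted once and 0.0245 with sites that overlap a single gene. For C/D snoRNAs it was 4.21, and 0.146 with sites that overlap a single gene. It was 2.97 with each site counted once and 5.47 without positions of 500 cDNAs or more, both with overlap between groups. The setting of a single gene leaves out most snoRNA and scaRNA sites, which lie inside host genes, and cannot decide these differences. For protein-coding genes it was -3.10, and 15.1 with each site counted once and -10.7 without positions of 500 cDNAs or more. The differences in coding sequence, in introns and after the H box moved by less than the spread between replicates, which is wide: for coding sequence the difference was -5.26 percentage points and turned to 5.13 with sites divided by region length and to 3.43 without IgG replicate 2. For 5′UTRs it was -0.90 and turned to 1.56 with sites of at least 3 cDNAs. The positions of 500 cDNAs, the upstream flanks, DANCR without its flank and the crossed pairing were chosen after seeing the data. IgG replicate 2, with 10701 cDNAs, limits every value that rests on it.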
